A study of Mus musculus with 12 samples.

Results

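Cytosolic ribosomal protein genes were compared between bone marrow erythroblasts of cyclin E (T74A T393A) knock-in mice and those of wild type mice. The genes were chosen by name, as those whose symbol in the array annotation is Rpl or Rps followed by a number, together with Rplp0, Rplp1, Rplp2 and Rpsa. Kinases of the Rps6k family, pseudogenes and hyphenated names were left out. This gave 65 of the 19057 genes on the array, with 96 of its 45281 probes. For 57 of the 65 genes at least 1 probe lay above background on at least 6 of the 12 arrays, and these 57 were tested among 9388 genes. They comprise 22 genes of the small subunit, 31 of the large subunit, 3 of the stalk, and Rps19bp1, which the name rule takes in although it encodes a protein that binds Rps19 and is not a subunit.

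Illumina bead arrays measured total RNA of erythroblasts sorted as Ter119-positive and CD71-high, on strain background 129. The knock-in group carried cyclin E with threonine to alanine substitutions at both positions (T74A and T393A) and had 6 arrays, and the control group of wild type littermates also had 6. The series compares the genotypes to learn what changes when Fbw7-dependent ubiquitination of cyclin E, a cell cycle regulator, is defective. The sources used here do not give zygosity, age, sex or the number of animals. The level of the cyclin E transcript does not check these labels, because the alleles differ by point substitutions.

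Adjacent arrays of a genotype were so alike that they were counted as duplicates of 1 sample. With each gene centred on its mean, the correlation across genes was 0.842 to 0.945 for adjacent arrays, and -0.38 to 0.22 for the remaining array pairs within a genotype. Averaging them left 3 knock-in samples (arrays 3 and 4, 5 and 6, 11 and 12) and 3 wild type samples (arrays 1 and 2, 7 and 8, 9 and 10). The labels do not tell whether each sample was a separate mouse, and the p-values therefore reflect sample-to-sample spread that may be technical. All values below are log2 intensities after background correction and quantile normalization unless another scale is named, and the precision is limited by the 3 samples per genotype. Between 15988 and 18227 probes per array lay above background.

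Each ribosome joins a small subunit, which decodes the mRNA, to a large subunit, which forms the peptide bond and carries a flexible stalk that recruits translation factors. Most mRNAs of ribosomal proteins begin with a pyrimidine tract at the cap, through which mTORC1 signalling controls their translation as a group. Erythroid precursors make large amounts of globin and are sensitive to ribosome shortage: heterozygous loss of single ribosomal protein genes causes Diamond-Blackfan anaemia in humans, in which red cell production fails and p53 is activated.

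Most ribosomal protein genes had slightly lower signal in knock-in than in wild type erythroblasts on the quantile scale but not under 75th percentile scaling, and 0 passed the test. Of the 57 genes, 52 had a difference below 0 on the quantile scale, and 24 did when arrays were instead scaled to their 75th percentile over all probes, called 75th percentile scaling from here on. A difference below 0 was found for 58.4% of all genes on the quantile scale and for 42.8% under 75th percentile scaling. The median difference of the 57 genes was -0.155, beside -0.029 over all 9388 genes, and it was 0.021 under 75th percentile scaling. The limma test with Benjamini-Hochberg adjustment over all genes called 0 of the 57 at 0.05 in either direction, where it called 0.0852% of all genes (8 genes, all higher). At an unadjusted limma p under 0.05, 4 members were lower, where 3.09% of all genes were, and 1 was higher, where 5.56% of all genes were. For 15 members every knock-in sample lay below every wild type sample, and for 1 every knock-in sample lay above, against 6.47% and 7.23% of all genes.

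**Figure D1:**
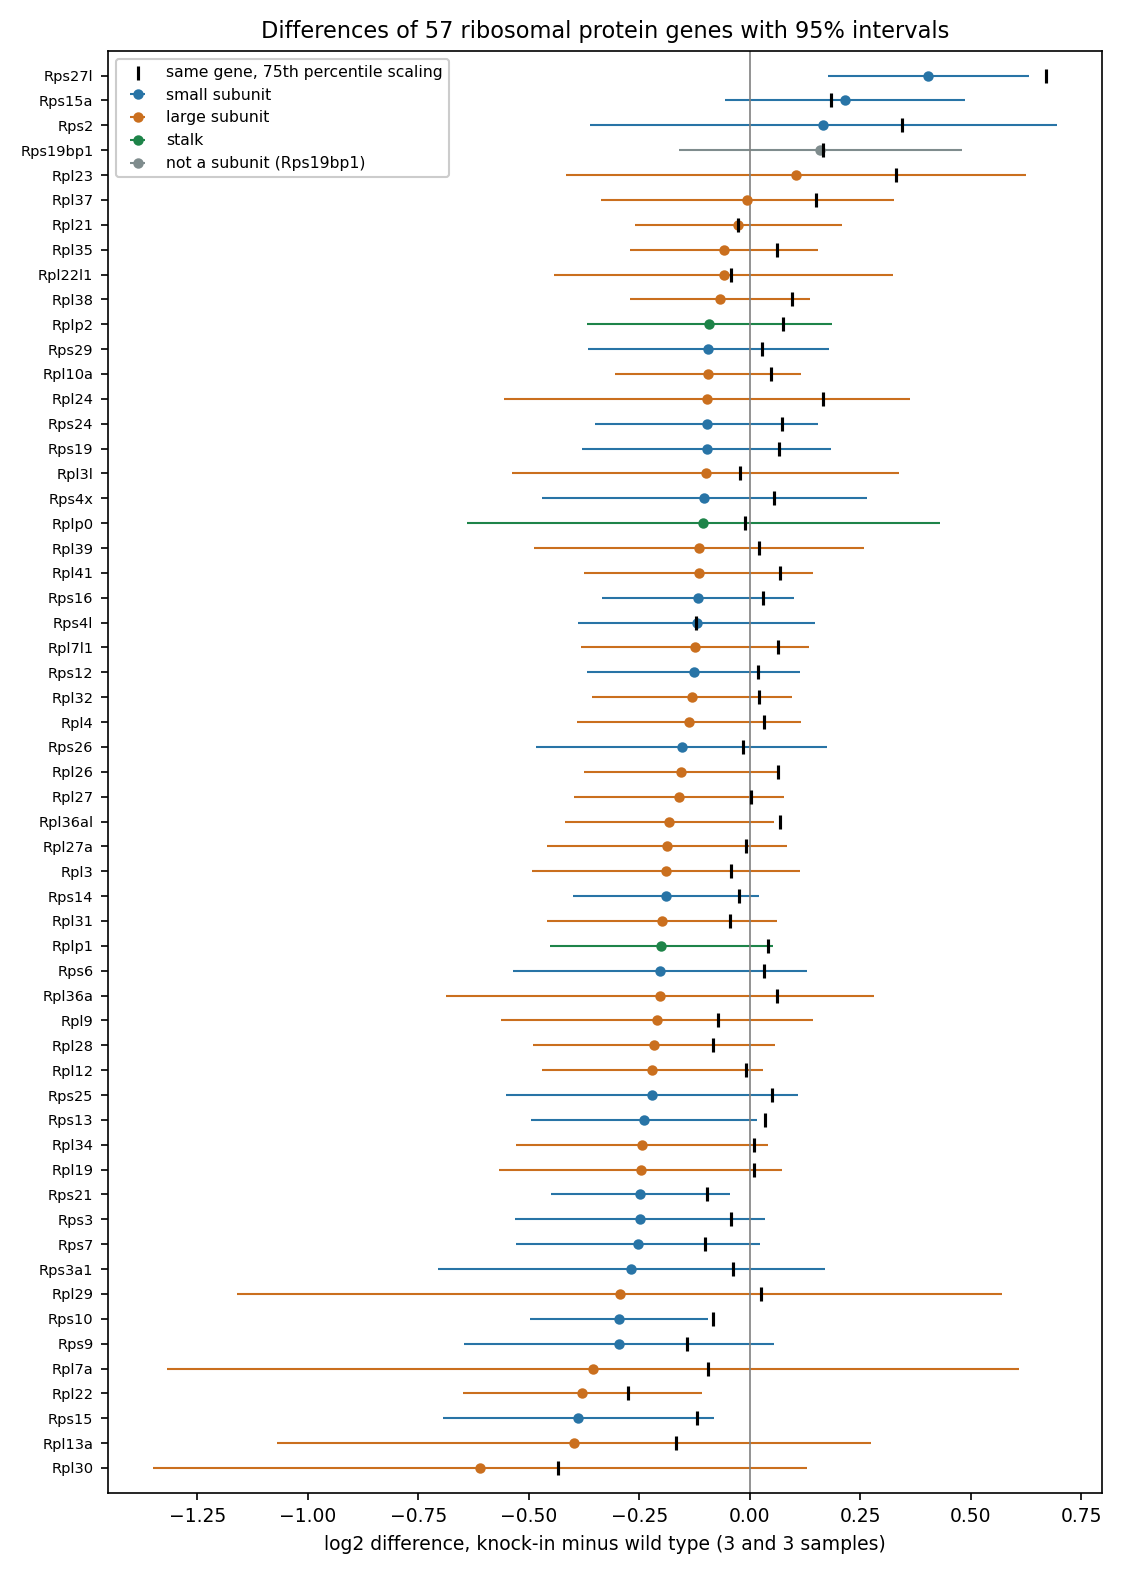
Log2 difference, knock-in minus wild type, for each of the 57 tested ribosomal protein genes, with points for the quantile-normalized estimate, lines for the 95% interval (3 samples per genotype), colours for the subunit and black ticks for the same gene under 75th percentile scaling over all probes. On the quantile scale 52 points lie left of 0, and under the other scaling 24 ticks do.

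The shift was small in every sample. After each gene was centred on its mean over the 6 samples, the median of the 57 genes was -0.062, -0.068 and -0.085 in the knock-in samples and 0.071, 0.079 and 0.056 in the wild type samples. Every knock-in sample thus lay below every wild type sample in this median on the quantile scale. In the knock-in samples 15, 15 and 19 of the 57 genes lay above their own mean, against 43, 37 and 38 in the wild type samples. Small subunit genes had a median difference of -0.172, with 19 of 22 below 0, and of 0.023 under 75th percentile scaling. Large subunit genes had a median of -0.160, with 30 of 31 below 0, and of 0.010 under 75th percentile scaling. The stalk genes had a median of -0.105, with 3 of 3 below 0, and of 0.042 under 75th percentile scaling.

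**Figure D2:**
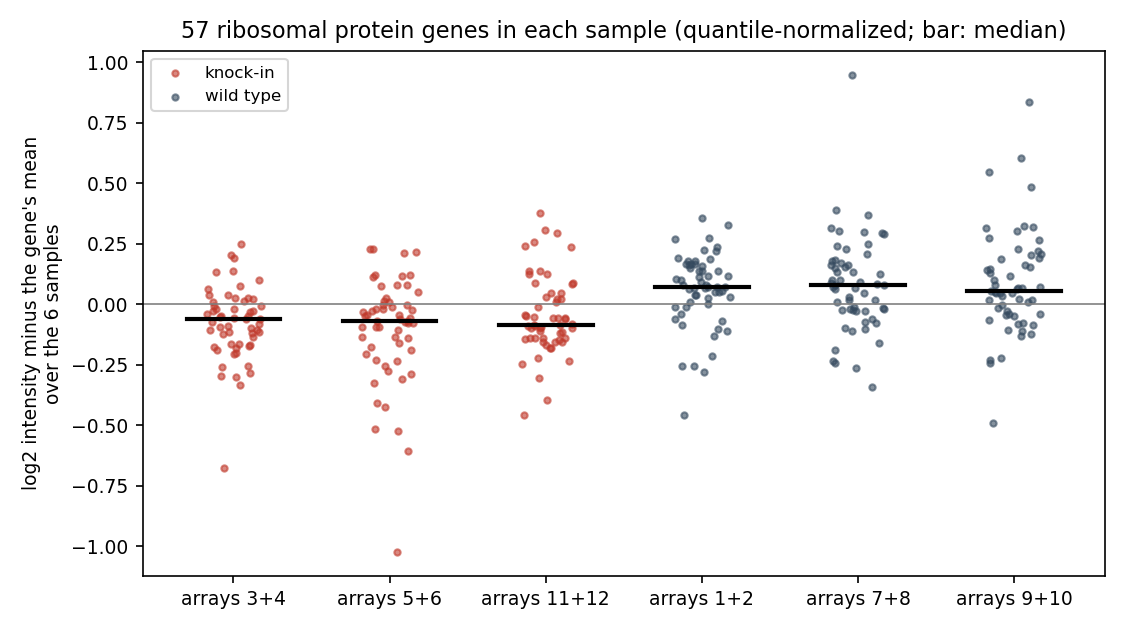
Quantile-normalized log2 intensity minus the gene's mean over the 6 samples, with 1 point per ribosomal protein gene (57) and a bar at the median, for 3 knock-in samples (left) and 3 wild type samples (right). The bars lie between -0.085 and -0.062 in the knock-in samples and between 0.056 and 0.079 in the wild type samples, an order that depends on the scaling of the arrays.

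The members' share of each array's positive signal was also taken, which scales each array to its own total. This share covers the probe used for each of the 57 tested genes and leaves out their other probes. It was 5.05%, 4.95% and 5.48% in the knock-in samples, against 5.57%, 5.59% and 6.05% in the wild type samples. The means were 5.16 ± 0.28% and 5.74 ± 0.27% (SD, n = 3 each), and the genotypes did not overlap, though the highest knock-in sample lay close to the lowest wild type sample. This share moves with every other probe on the array as well as with the probes it covers. The members' summed intensity, not divided by the total, overlapped between genotypes. It was 426242 to 554380 on the knock-in arrays and 374431 to 505536 on the wild type arrays.

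How far the family stood below other genes depended on which genes it was set against. The members' median lay below the median of all genes by -0.126 on the quantile scale, by -0.157 after cyclic loess and by -0.124 in the authors' processed values. With any scaling that shifts a whole array by 1 constant, the gap was -0.007. Of the 57 members 33 had a mean log2 intensity of at least 12 on the probe used, and these were also set beside the 163 other genes at that level, a grouping chosen after the data were seen. The medians were -0.154 for these members and 0.030 for the other bright genes, a gap of -0.184. That gap was -0.177 under each constant-shift scaling and -0.179 after cyclic loess, and it is a description with no test. The other bright genes include erythroid and neutrophil markers such as Alas2, Slc4a1 and S100a9, and the part of such markers in the gap was not tested. Under the scaling to the 75th percentile of probes above background on all arrays the median of all genes itself lay at -0.178, and the members' at -0.185.

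**Figure D3:**
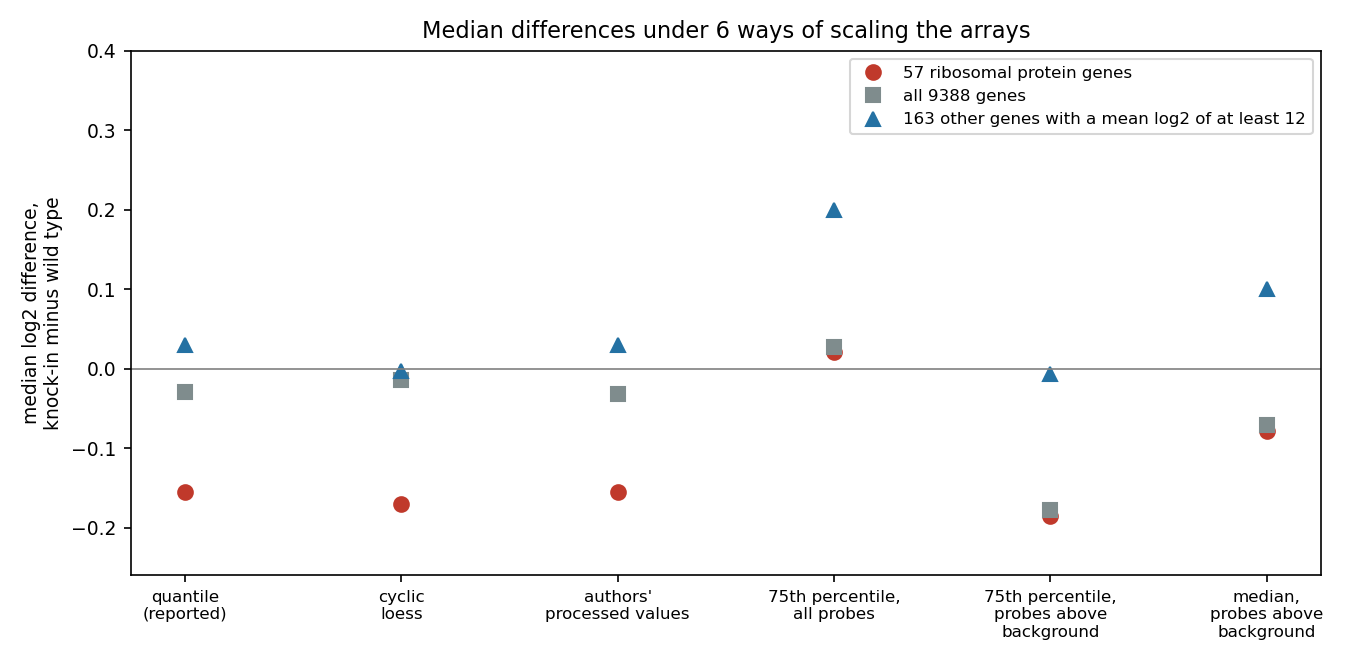
Median log2 difference, knock-in minus wild type, of 57 ribosomal protein genes (circles), all 9388 genes (squares) and 163 other genes with a mean log2 intensity of at least 12 (triangles), under 6 ways of scaling the arrays. The members' median is -0.155 on the reported quantile scale and 0.021 under 75th percentile scaling over all probes, and in each scaling it lies below that of the other bright genes.

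Array numbers fall into 3 blocks of 4 adjacent arrays, each with 1 sample of each genotype. These blocks were made from the array numbers alone, and the labels do not name them. Within the blocks the members' median difference was -0.143, -0.186 and -0.137. In all 3 blocks 36 of the 57 members (63.2%) lay below 0, where 23.5% of all genes did. A limma fit with the blocks as a term again called 0 members, where it called 0.937% of all genes.

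Markers of other cells moved with this comparison. Of 16 tested B lineage markers 15 were lower in knock-in samples, with a median difference of -0.755, and 15 were lower in each of the 6 scalings. Their mean log2 level was 7.34, 7.37 and 7.24 in the knock-in samples, against 8.17, 8.26 and 7.79 in the wild type samples, without overlap. The B cell factor Pax5 and the recombinase gene Rag2 were below background on all 12 arrays. All 13 tested mast cell, basophil and eosinophil markers were also lower on the quantile scale (median -0.382), and 12 of 13 after cyclic loess and under 75th percentile scaling. Their mean level overlapped, at 8.91, 9.22 and 8.98 in knock-in samples and 9.20, 9.77 and 9.41 in wild type samples. The limma fit with the blocks as a term called 3 B lineage markers lower (Cd79b, Blnk and Pou2af1). It also called 2 of the mast cell, basophil and eosinophil markers lower (Mcpt8 and Prss34). That fit called 0.266% of all genes lower, and the fit without blocks called 0 of both lists. Erythroid markers had a median of 0.230 with 11 of 15 higher, and their mean level overlapped, at 12.28, 12.21 and 12.47 in knock-in and 12.43, 11.89 and 12.11 in wild type samples. Of the 16 erythroid markers on the array, 15 were above background on at least 6 arrays, and Epb42, a membrane skeleton protein, was below it on all arrays. Neutrophil markers were bright in both genotypes, with mean levels of 12.43 to 13.24 in knock-in and 12.65 to 13.26 in wild type samples. The part of these cells in the ribosomal protein values was not tested, and in sorted bulk samples fewer cells of a type and less RNA per cell cannot be told apart.

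Rps27l was the member with the smallest p and the only one whose higher knock-in values did not overlap those of wild type. It encodes a close copy of the small subunit protein Rps27 and is known as a target of p53 in human and mouse cells. Its log2 intensity was 12.08, 12.01 and 12.18 in the knock-in samples, against 11.64, 11.66 and 11.77 in the wild type samples. The difference was 0.40 (SE 0.09, 95% interval 0.18 to 0.63), or 1.32-fold. The limma adjusted p over all genes was 0.228, and 0.0934 with the blocks as a term, so the gene did not pass. Its difference stayed above 0 in all 21 other settings, between 0.36 and 0.67.

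Rps27l was also set against the rest of the family. Its log2 value less the median of the other tested members cannot be moved by a shift of a whole array, and was -0.60, -0.59 and -0.51 in the knock-in samples and -1.25, -1.24 and -1.01 in the wild type samples. The genotypes did not overlap in this gap. Rps27l was picked for its higher knock-in values, and most other members were lower on the same scale. The lack of overlap was therefore built in and adds no separate support. The means were -0.57 ± 0.05 and -1.17 ± 0.14 (SD, n = 3 each), and the size of the gap within a sample compares different probes and is not a ratio of transcripts. Rps27 itself was not analysed here.

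Among the other 7 of the 8 members with the smallest p, all were lower without overlap on the quantile scale. Rps10, a small subunit protein mutated in Diamond-Blackfan anaemia, had 12.28, 12.21 and 12.25 in knock-in samples, against 12.58, 12.49 and 12.55 in wild type samples, a difference of -0.29 (SE 0.08, limma adjusted p = 0.313). Rpl22, a large subunit protein whose loss in mice blocks αβ T cell development, had 7.65, 7.36 and 7.33 in knock-in samples and 7.82, 7.81 and 7.86 in wild type samples. Its difference was -0.38 (SE 0.11, limma adjusted p = 0.327). For both genes the SD within each genotype was smaller than the difference between genotypes, and neither passed over all genes.

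Rps15, a small subunit protein near the decoding site, had 11.30, 10.98 and 11.29 in knock-in samples, against 11.55, 11.48 and 11.71 in wild type samples. It differed by -0.39 (SE 0.13, limma adjusted p = 0.396). Rps21, also of the small subunit, had 13.08, 13.11 and 13.05 in knock-in samples and 13.34, 13.27 and 13.37 in wild type samples, a difference of -0.25 (SE 0.08, limma adjusted p = 0.425). Both separated the genotypes without overlap on the quantile scale.

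Rps13, of the small subunit, had 11.52, 11.53 and 11.50 in knock-in samples and 11.63, 11.93 and 11.72 in wild type samples. Its difference of -0.24 (SE 0.11, limma adjusted p = 0.635) was 0.035 under 75th percentile scaling. Rps7, which is mutated in Diamond-Blackfan anaemia and binds the p53 ligase Mdm2, had 12.92, 12.73 and 13.09 in knock-in samples, against 13.20, 13.12 and 13.18 in wild type samples. The nearest samples of the genotypes were close for these 2 genes, and Rps7 differed by -0.25 (SE 0.11, limma adjusted p = 0.643). Rps14, whose human counterpart is lost with one copy of 5q in a myelodysplastic syndrome, had 13.81, 13.75 and 13.84 in knock-in samples and 14.01, 13.91 and 14.04 in wild type samples. It differed by -0.19 (SE 0.09, limma adjusted p = 0.645), and its knock-in samples all lay under its wild type samples.

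**Figure D4:**
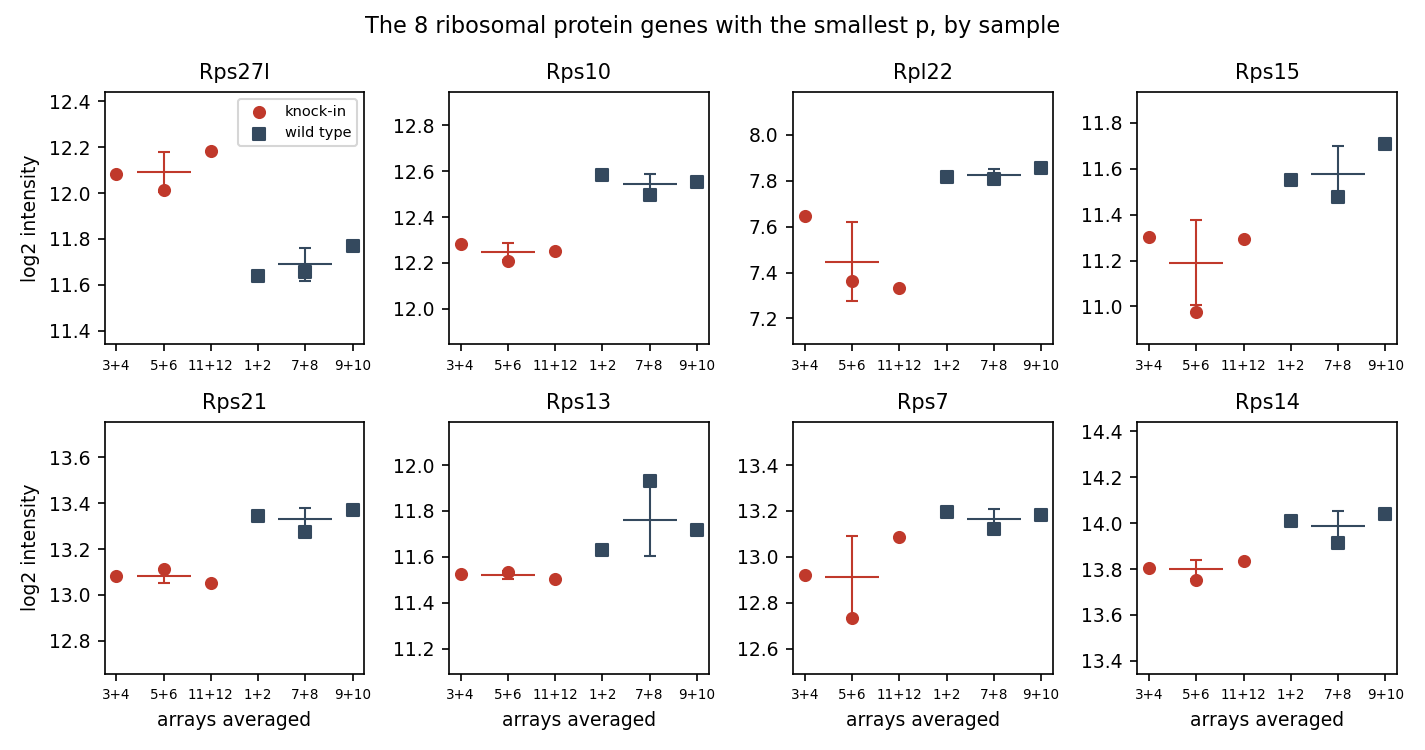
Quantile-normalized log2 intensity by sample for the 8 ribosomal protein genes with the smallest p, with knock-in samples as circles (left) and wild type samples as squares (right), lines at the mean and bars of 1 SD (n = 3 each). Rps27l is higher in every knock-in sample (12.01 to 12.18) than in any wild type sample (11.64 to 11.77), and the other 7 are lower, of which Rps13 is higher under 75th percentile scaling over all probes.

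Start site windows are shown for these genes, except Rps14, because a pyrimidine tract at the cap marks most mRNAs of this family. The tracts counted here are defined by distance from the annotated start and need not lie at the cap. Each window holds 15 bases before and 25 from the annotated start on, from the RefSeq promoter table of build GRCm38.p6, and capitals mark the tract. Where a gene had several entries, as Rps27l, Rpl22 and Rps21 did with 2 each, the one with the longest tract is shown. A gene was counted as holding a tract if any of its entries did. A tract was defined as a C followed by pyrimidines, C or T, 5 or more letters in all, on the strand of the gene, starting within 10 bases of the annotated start. A run that begins further upstream was marked and counted only from that limit on. The windows lie at chr9:66946071-66946110 on the plus strand (Rps27l), chr17:27635220-27635259 on the minus strand (Rps10), chr4:152324421-152324460 on the plus strand (Rpl22), chr10:80292416-80292455 on the plus strand (Rps15), chr2:180257364-180257403 on the plus strand (Rps21), chr7:116334166-116334205 on the minus strand (Rps13) and chr12:28635929-28635968 on the minus strand (Rps7).
Rps27l: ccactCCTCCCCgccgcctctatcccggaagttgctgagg
Rps10: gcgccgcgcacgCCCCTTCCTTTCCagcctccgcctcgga
Rpl22: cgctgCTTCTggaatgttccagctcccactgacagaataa
Rps15: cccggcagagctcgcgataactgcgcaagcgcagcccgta
Rps21: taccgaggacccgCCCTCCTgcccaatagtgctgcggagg
Rps13: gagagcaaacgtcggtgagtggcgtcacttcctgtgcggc
Rps7: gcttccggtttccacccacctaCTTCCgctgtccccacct

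The tract spanned 13 bases in Rps10, 7 in Rps27l and Rps21 and 5 in Rpl22 and Rps7. In Rps27l the run of pyrimidines begins before the limit, so its marked length is cut there. Relative to the annotated start the tracts began at -10 in Rps27l and Rpl22, -3 in Rps10, -2 in Rps21 and 8 in Rps7. Those of Rps27l and Rpl22 lie wholly before the annotated start, so by that start they are not in the mRNA. The windows of Rps15 and Rps13 held none that starts within 10 bases of the annotated start, which says only that no run of these letters begins there. Of 48 tested members with an entry 29 (60.4%) held a tract, against 37.4% of 7628 other tested genes with an entry and 34.4% of all 27025 genes in the table. The motif CCGGAAG on either strand of the promoter window, 250 bases before and 50 from the start on, was held by 41.7% of the 48 members and 20.7% of the other tested genes. Members with a tract had a median difference of -0.187 (29 genes, 26 below 0) and those without one -0.146 (18 genes, 17 below 0, leaving out Rps19bp1). Under 75th percentile scaling these medians were 0.0090 and 0.043. Rps27l, with a tract and the motif, was higher, and Rps10, Rps21 and Rps7, with both, were lower.

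Of the remaining small subunit genes, Rps3 (-0.25), which lies at the mRNA entry, and Rps16 (-0.12) had lower knock-in values without overlap. Rps6 (-0.20), the substrate of S6 kinases, Rps9 (-0.30), Rps25 (-0.22), Rps3a1 (-0.27), Rps12 (-0.13), Rps24 (-0.10) and Rps29 (-0.09) had differences below 0 with overlapping samples. Rps15a, a Diamond-Blackfan gene, was dim and had 6.11, 6.37 and 6.27 in knock-in samples, against 6.08, 6.12 and 5.90 in wild type samples. Its difference was 0.22 (SE 0.11, limma adjusted p = 0.715), and the lowest knock-in sample lay under the highest wild type sample. Rps2 (0.17) and Rps19bp1 (0.16) were the other genes of this name with differences above 0.

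Among large subunit genes, Rpl12 (-0.22), Rpl28 (-0.22), Rpl26 (-0.16), Rpl27 (-0.16) and Rpl36al (-0.18) had lower knock-in values without overlap. The lowest difference of the family was that of Rpl30, at -0.61 (SE 0.31, limma adjusted p = 0.690). Its values were 7.76, 8.65 and 7.97 in knock-in samples and 8.50, 8.44 and 9.27 in wild type samples, which overlapped. Rpl13a (-0.40) and Rpl7a (-0.35) also had wide 95% intervals, of -1.07 to 0.28 and -1.32 to 0.61. In Rpl7a the knock-in sample of arrays 5 and 6 had 9.22, beside 10.49 and 10.49 in the other knock-in samples, and the wild type samples had 10.57, 9.90 and 10.79. Rpl37 (-0.01), Rpl21 (-0.03), Rpl35 (-0.06), Rpl22l1 (-0.06) and Rpl38 (-0.07), the last needed in mouse for translation of Hox mRNAs, were closest to 0.

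The stalk proteins Rplp1 and Rplp2 are held on the large subunit by Rplp0. Rplp1 had 14.61, 14.88 and 14.82 in knock-in samples, against 15.04, 14.95 and 14.92 in wild type samples, a difference of -0.20 (SE 0.11, limma adjusted p = 0.716) without overlap. Rplp2 (-0.09) and Rplp0 (-0.10) had overlapping samples. The probe used for Rplp0 was dim, at 7.28 ± 0.25 in knock-in and 7.39 ± 0.38 in wild type samples (SD, n = 3 each).

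Members were on the whole steady from sample to sample. The SD over the 6 samples had a median of 0.166 over the 57 members and 0.188 over all genes. It was highest for Rpl7a (0.58), Rpl30 (0.53), Rpl29 (0.52) and Rpl13a (0.43).

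The Diamond-Blackfan list held 20 genes, of which 11 were tested, and 0 of these passed. Their differences were below 0 for 10 of the 11 on the quantile scale, with a median of -0.154 beside -0.029 over all genes, and for 4 of the 11 under 75th percentile scaling, with a median of 0.028. Rps10, Rps7 and Rps15a had the smallest p and are given above. Rps19, the gene most often mutated in the human disease, had 12.98, 12.94 and 12.81 in knock-in samples and 13.18, 12.99 and 12.85 in wild type samples, which overlapped, with a difference of -0.10 (SE 0.12, limma adjusted p = 0.952). Rpl5 and Rpl11, which bind Mdm2 as part of the 5S particle, were not analysed here.

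Ribosomal proteins with a near copy in the genome were compared within 4 pairs. Rpl22l1, which can stand in for Rpl22 in mice lacking it, had 6.56, 6.38 and 6.72 in knock-in samples and 6.46, 6.48 and 6.91 in wild type samples, a difference of -0.06 (SE 0.16). The difference of Rpl22l1 less that of Rpl22 was 0.320 (exact permutation test over samples, two-sided p = 0.3, adjusted p = 1 over the 4 pairs). Rpl22l1 thus overlapped between genotypes where Rpl22 did not. With 3 samples per genotype the smallest two-sided p this test can give is 0.1.

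Rpl36al had 12.03, 11.86 and 11.81 in knock-in samples, against 12.04, 12.14 and 12.05 in wild type samples. Its partner Rpl36a had 12.01, 11.38 and 11.72 in knock-in samples and 11.98, 11.62 and 12.12 in wild type samples, and their differences were 0.022 apart (exact permutation p = 0.9). The partner overlapped between genotypes. Rpl3l, the copy of Rpl3 known from heart and skeletal muscle, had 7.07, 7.28 and 6.66 in knock-in samples and 6.94, 7.29 and 7.07 in wild type samples. Rpl3 had 13.21, 13.17 and 12.98 in knock-in samples and 13.48, 13.31 and 13.13 in wild type samples. Both overlapped, and their differences were 0.089 apart (exact permutation p = 0.7).

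Rps4l had 6.24, 6.12 and 6.10 in knock-in samples, against 6.11, 6.28 and 6.42 in wild type samples. Rps4x, its partner on the X chromosome, had 12.88, 13.13 and 13.00 in knock-in samples and 13.14, 13.35 and 12.83 in wild type samples. Both overlapped, and their differences were -0.017 apart (exact permutation p = 1). The copy Rpl7l1 had 8.38, 8.49 and 8.60 in knock-in samples and 8.48, 8.68 and 8.68 in wild type samples. Rpl39 had 13.37, 13.62 and 13.71 in knock-in samples and 13.41, 13.81 and 13.83 in wild type samples. The partners of these 2 genes were not tested, and both genes overlapped between genotypes. Copies of ribosomal protein genes, and the many processed pseudogenes of this family, share sequence with their parents, so a probe may also bind transcripts of another copy.

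Of the 76 ribosomal protein probes kept as above background, 69 had a difference below 0 on the quantile scale, where 57.2% of all kept probes did. The limma test over all kept probes called 0 of the 76, where it called 0.0829% of all kept probes, and 0 with the blocks as a term, where it called 0.438%. In Rpl27a the brightest probe, which stands for the gene, was at -0.19 with overlapping samples. Its dimmer kept probes were at -0.57 (SE 0.15, limma adjusted p = 0.301) and -0.27 (SE 0.10, limma adjusted p = 0.533), both without overlap on the quantile scale. They were picked out after their values were seen. Probes of 4 genes gave opposite signs. The 2 probes of Rpl29 differed most, at -0.29 (SE 0.36) for the brighter and 0.40 (SE 1.17) for the dimmer one.

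Deposited intensities of the dimmer Rpl29 probe were 284.4 and 299.3 on knock-in arrays 3 and 4, 9.4 and 9.5 on arrays 5 and 6, and 334.4 and 335.8 on arrays 11 and 12. On the wild type arrays they were 18.6 and 16.9 on arrays 1 and 2, 850.4 and 912.4 on arrays 7 and 8, and 2.5 and 6.9 on arrays 9 and 10. Adjacent arrays gave similar values, while samples of 1 genotype lay far apart in both genotypes. Of the 2 probes of Rps2 the brighter was at 0.17 (SE 0.22) and the other at -0.18 (SE 0.14). The brightest probe of Rpl23 was at 0.11 and the other kept ones at -0.09, and the 3 probes of Rpl21 lay between -0.06 and 0.01.

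**Figure D5:**
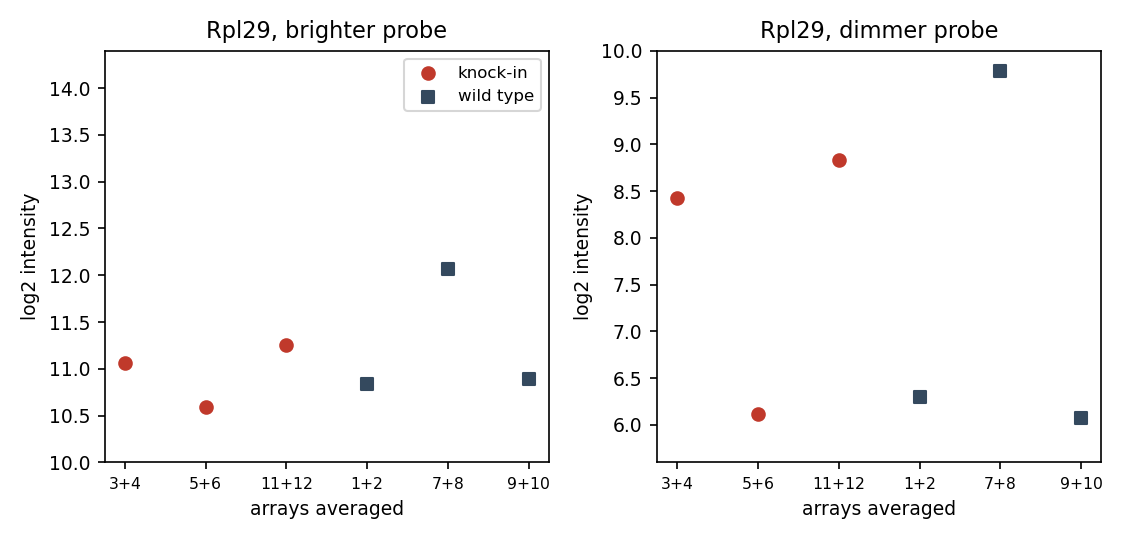
Quantile-normalized log2 intensity of the brighter (left panel) and dimmer (right panel) probe of Rpl29 by sample, with knock-in samples as circles and wild type samples as squares. The dimmer probe is high in 2 knock-in samples and 1 wild type sample and low in the other samples of both genotypes.

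The remaining 8 members were not tested because their probes were below background on nearly all arrays: Rpl14, Rpl17, Rpl6, Rps20, Rps23, Rpsa, Rpl39l and Rps23rg1. Most of these are core subunits. Whether the low signal comes from the probes or from the transcripts was not tested.

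Genes that act with ribosomal proteins were described from lists, of which only 1 gene passed. A list of elongation factors and other mRNAs described as having a pyrimidine tract had 11 tested genes, whose own tracts are not given here. Of these genes 9 were below 0, with a median of -0.201 (0.0054 under 75th percentile scaling) and 0 passing. Eef1b2, an exchange factor subunit for the elongation factor that delivers tRNA, had 11.04, 11.01 and 11.20 in knock-in samples and 11.23, 11.52 and 11.45 in wild type samples, a difference of -0.32 (SE 0.12, limma adjusted p = 0.487) without overlap. Eef1g (-0.30) of the same complex and the poly(A)-binding protein gene Pabpc1 (-0.31) followed by p. Initiation factors had 18 of 26 below 0 (median -0.088, and 0.137 under 75th percentile scaling), with Eif3j1 at 0.25, Eif3f at -0.23 and Eif5b at 0.27, and 0 passed.

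Ribosome assembly factors had 54 of 76 below 0 with a median of -0.046, near that of all genes, and of 0.024 under 75th percentile scaling. Gar1, a core protein of the particles that pseudouridylate rRNA, had the smallest p there at -0.36 (SE 0.10, limma adjusted p = 0.297), followed by Ddx27 (-0.23) and Lsg1 (-0.28). RNA polymerase I genes had 11 of 17 below 0 (median -0.087, and 0.045 under 75th percentile scaling). Taf1d, a subunit of the selectivity factor of that polymerase, had 7.58, 7.46 and 7.56 in knock-in samples, against 7.10, 6.93 and 6.92 in wild type samples. It was higher by 0.55 (SE 0.10, limma adjusted p = 0.139) without overlap, and Polr2e (-0.23) and Polr1d (-0.19) came next. The stalled ribosome list had a median of -0.011 with 8 of 14 below 0 (0.040 under 75th percentile scaling), and Ascc1 (-0.24), Abce1 (0.17) and Ascc2 (-0.20) had its smallest p.

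Mitochondrial ribosomal proteins, which build the separate ribosome of that organelle, had 61 of 72 below 0 with a median of -0.138 (0.031 under 75th percentile scaling) and 0 passing. Their mean level overlapped between genotypes, at 8.37, 8.24 and 8.51 in knock-in samples and 8.44, 8.41 and 8.64 in wild type samples. Mrps9 (-0.28), Mrps23 (-0.25) and Mrps21 (-0.34) had the smallest p.

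The list of genes that control mTORC1 and its mRNAs had 12 of 21 above 0 and 9 below, with a median of 0.119 on the quantile scale that lay between 0.016 and 0.221 over the 6 scalings. Ddit4, an inhibitor of mTORC1 induced by stress, rose to 8.56, 8.85 and 8.49 in knock-in samples, against 6.75, 6.69 and 6.77 in wild type samples. The difference was 1.90 (SE 0.12, limma adjusted p = 0.00982), or 3.72-fold. Rheb (0.38), which activates mTORC1, and Sesn2 (0.36), which inhibits it, were next and did not pass. With 1 sample left out, 0 genes of these lists passed when it was wild type arrays 1 and 2, wild type arrays 7 and 8, knock-in arrays 3 and 4, or knock-in arrays 11 and 12, so the call of Ddit4 was lost there (limma adjusted p up to 0.165). Its difference stayed between 1.79 and 1.97 whichever sample was left out.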

How the data were processed

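Biotinylated cRNA of total RNA was hybridised to Illumina arrays, per the labels' protocols; the submitters' processing notes name GenomeStudio. One deposited table holds intensity values not normalized between arrays, with background already subtracted, as negative values show. The second deposited table holds processed intensity values, and the sources used here do not give its scaling. No detection p-values were used.

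Intensities of the first table were corrected with limma 3.58.1 (R 4.3.3; normexp, offset 50), quantile-normalized and taken to log2, which understates folds of dim genes. Probes above a limit, the 90th percentile of each array's mirrored negative values, on at least 6 arrays were kept (16894 of 45281). The platform annotation gave 1 symbol to 34885 probes, several to 18 and none to 10378. All 96 member probes carried an Entrez ID with the same symbol in RefSeq. A gene is represented by its kept probe with the highest mean. Duplicate arrays were averaged, which was decided from the values and the array numbers. The log2 values, computed here from the deposited intensities, were tested with limma's lmFit and eBayes, adjusted over 9388 genes (Benjamini-Hochberg, 0.05). The limma step alone was also run on simulated samples with independent noise for each gene. That simulation held no array shifts and no normalization, so it cannot show how the results depend on scaling.

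Members, lists and tests were chosen with earlier results of these data known. Per-sample values are given for the 8 members with the smallest p, paralog pairs and the 3 Diamond-Blackfan genes with the smallest p, and the 3 smallest p are named for each pathway list. Rps19, Rpl30, Rpl7a, Rplp1 and Rplp0 were given per-sample or mean values after their values were seen. The other marker lists had medians of -0.132 (T and NK cells, 10 of 11 below 0) and -0.188 (monocytes and macrophages, 11 of 13 below 0). Those of neutrophils (8 of 15 below 0) and megakaryocytes (5 of 9 below 0) were -0.018 and -0.014. Alternatives covered background correction, scaling, the filter, probe choice, moderation, duplicates, blocks and leaving out each sample.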

Additional observations from a re-analysis of the deposited data

How the results depend on the processing

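The direction of the family's median depended on scaling. The median difference was -0.155 as reported, -0.171 after cyclic loess, 0.021 with the 75th percentile over all probes (24 of 57 members below 0), -0.185 with that percentile over probes above background on all arrays, and -0.078 with the median over those probes, the last 2 chosen after the data were seen. It was -0.127 with no filter on dim probes (65 genes) and -0.137 with the mean of a gene's probes. Leaving out 1 sample at a time gave -0.169 to -0.131, with 48 to 53 members below 0 and 0 called. Taking 12 arrays as 12 samples, which counts duplicates as replicates, called 1 member higher (Rps27l) and 7 lower (Rps10, Rpl22, Rps15, Rps21, Rps13, Rps14 and Rpl12), and 14 genes of the pathway lists, against 1 as reported, 2 with duplicates as a random block and 0 to 1 with 1 sample left out. The share of all genes called with 12 arrays as 12 samples is not given here, so those counts are not a result about the family. No other setting called a member. The genotypes share no replicate numbers, so samples could not be paired by number. Samples were instead grouped into blocks of 4 adjacent arrays, which the labels do not name, and that fit called 0 members.

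Differences of paralog pairs with 1 sample left out ran from 0.179 to 0.451 (Rpl22l1 less Rpl22), -0.118 to 0.199 (Rpl36al less Rpl36a), -0.077 to 0.190 (Rpl3l less Rpl3) and -0.132 to 0.194 (Rps4l less Rps4x).

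With the 75th percentile over all probes 29 of 57 members kept their sign and the others turned, none of them called. Of the turned ones, for example, Rps13 was at 0.035, Rpl36al at 0.068, Rpl36a at 0.062, Rps4x at 0.056 and Rpl29 at 0.026. With that percentile over probes above background Rps15a was at -0.022 and Rps19bp1 at -0.040. With the mean of probes Rps2 was at -0.0076 and Rpl29 at 0.055, and with array weights Rpl22l1 was at 0.012 and Rpl36a at 0.0094. With 1 sample left out Rps2 ran from -0.019 to 0.323, Rpl22l1 from -0.143 to 0.087, Rps4x from -0.239 to 0.019, Rpl29 from -0.506 to 0.108 and Rpl3l from -0.239 to 0.072. The cause was not tested.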
